A study of Mus musculus with 2 samples.

Results

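The genes described are 9 transcription factors that set or mark the identity of macrophages and monocytes, *Maf*, *Spi1*, *Cebpa*, *Cebpb*, *Id3*, *Zeb2*, *Klf2*, *Klf4* and *Nr1h3*. They were chosen by symbol, 1 row each, among the 55386 features of the count matrices. The data are single-cell transcript counts of living CD45-positive leukocytes sorted from the aortic adventitia of 16-week-old RankCreRosa26eYFP mice, captured in droplets with 3′ chemistry. The steady state library pooled 3 untreated animals. The AngII library pooled 2 animals that received angiotensin II (AngII) at 1.8 µg/kg/min for 10 days, a model of arterial inflammation. All animals of both libraries carried the same alleles, in which Cre recombinase made from *Rank* (*Tnfrsf11a*) switches on a yellow fluorescent reporter, whose transcript is called *Yfp*, in cells that have expressed *Rank* and in their descendants, among them the progeny of yolk sac progenitors. As each condition is 1 library, the condition and the library cannot be told apart, and intervals cover counting error only.

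The steady state library held 346 barcodes and the AngII library 4419, and no barcode was shared by the libraries. After the filter of the methods, which keeps 300 to 6500 genes and at most 5% mitochondrial counts, 306 and 4198 cells remained, with a median of 9105 and 1092 unique molecules (UMIs). Cells were assigned to classes by a gate on 21 marker lists, none of which holds any of the 9 factors, and a class is called after its list with the ending "-like". At steady state, 107 cells were resident macrophage-like (*Lyve1*, *Folr2*, *Cd163*), 25 Ear2 Tnip3 macrophage-like, 12 classical and 14 nonclassical monocyte-like, 37 T cell-like and 50 B cell-like. On AngII, 706 were resident macrophage-like, 429 Arg1 Spp1 macrophage-like, 363 Ear2 Tnip3 macrophage-like, 359 classical monocyte-like and 438 neutrophil-like. Levels are given as CPM, the UMIs of a gene per 1e+06 UMIs of all genes in the class, with 95% exact Poisson intervals.

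*Spi1*, which encodes PU.1, and the C/EBP proteins open myeloid enhancers and are required for monocytes and macrophages to form. *Maf* encodes c-Maf, a leucine zipper protein of mature, quiescent macrophages. *Klf2* and *Klf4* encode zinc finger proteins known to restrain inflammatory gene expression and to direct monocyte differentiation, *Zeb2* a repressor that holds macrophages to their tissue identity, *Id3* an inhibitor of helix-loop-helix proteins, and *Nr1h3* the liver X receptor alpha, which senses oxysterols.

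In GRCm38 with the GENCODE M21 annotation, *Spi1* lies on chromosome 2 from 91082390 to 91115756 and *Nr1h3* on the same chromosome from 91184061 to 91202834, 68304 bases apart. *Cebpb* (167688915 to 167690418) and *Zeb2* (44983632 to 45117395) are on chromosome 2 as well. *Maf* (115682942 to 115707794) and *Klf2* (72319033 to 72321656) are on chromosome 8, *Id3* (136143497 to 136145755) and *Klf4* (55527143 to 55532466) on chromosome 4, and *Cebpa* (35119293 to 35121928) on chromosome 7. On the opposite strand, *Cebpb* shares 908 bases with *Tmem189*, *Maf* 2156 with *Gm15655*, *Zeb2* 3381 with *Zeb2os* and *Cebpa* 313 with *Gm45091*. On the same strand, *Nr1h3* shares 6873 bases with *Gm13783*, so reads in that stretch are uncertain.

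The 250 bases before the RefSeq start (GRCm38.p6) are shown for *Klf2* and *Klf4*, the factors that were lower together on AngII, and for *Cebpb*, the factor that was highest in monocytes and neutrophils. A window was at hand for 7 of the 9 factors, without *Maf* and *Spi1*. Capitals mark, on either strand, the GC box GGGCGG and the box CACCC, both known to be bound by Krüppel-like factors.
Klf2 (chr8:72318812-72319061, + strand): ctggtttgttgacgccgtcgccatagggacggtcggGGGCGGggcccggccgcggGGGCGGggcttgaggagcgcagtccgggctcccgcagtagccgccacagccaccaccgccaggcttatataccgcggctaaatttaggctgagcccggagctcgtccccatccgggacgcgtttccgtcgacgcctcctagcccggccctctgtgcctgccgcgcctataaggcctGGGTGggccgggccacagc
Klf4 (chr4:55532476-55532725, - strand): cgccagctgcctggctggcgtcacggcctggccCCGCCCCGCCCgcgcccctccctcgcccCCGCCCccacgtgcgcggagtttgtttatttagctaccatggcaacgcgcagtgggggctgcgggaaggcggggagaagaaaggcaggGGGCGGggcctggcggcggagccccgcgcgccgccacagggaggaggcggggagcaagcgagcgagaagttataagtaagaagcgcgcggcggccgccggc
Cebpb (chr2:167688665-167688914, + strand): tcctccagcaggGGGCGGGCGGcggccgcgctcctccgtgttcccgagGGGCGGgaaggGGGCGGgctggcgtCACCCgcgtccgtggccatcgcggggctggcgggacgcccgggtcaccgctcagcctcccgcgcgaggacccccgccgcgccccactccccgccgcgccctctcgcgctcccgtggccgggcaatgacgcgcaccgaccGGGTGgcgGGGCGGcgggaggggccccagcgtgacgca

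The *Klf2* window held 2 GC boxes and 1 CACCC, the *Klf4* window 4 GC boxes and 0 CACCC, and the *Cebpb* window 5 GC boxes and 2 CACCC, with 1 pair of matches that overlap in each of the *Klf4* and *Cebpb* windows. Of 32851 promoter windows of that length, 32.7% held a GC box and 52.0% a CACCC. The letters of a PU.1 core (GAGGAA, in 23.3% of windows), a C/EBP site (TTGCNNAA, 9.56%), a Maf half-site (TGCTGAC, 3.81%), a Zeb E-box (CAGGTG, 17.2%) and a nuclear receptor half-site (AGGTCA, 14%) were not in these 3 windows. A match is a description of letters and not a site of binding.

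*Spi1* was found in every mononuclear class and was low in T cell-like cells. At steady state its level was 930.1 CPM (787 to 1092) in nonclassical monocyte-like, 664 CPM (546 to 801) in classical monocyte-like, 369 CPM (334 to 406) in resident macrophage-like and 293 CPM (253 to 338) in Ear2 Tnip3 macrophage-like cells. On AngII the nonclassical monocyte-like cells were again first, at 729 CPM (653 to 811), and the 4 macrophage classes lay between 405 and 465 CPM. Without cells that also passed the gate of another lineage, neutrophil-like cells led at 851 CPM (757 to 953, 164 cells), with an interval that overlapped that of nonclassical monocyte-like cells (742 CPM, 626 to 873, 20 cells). The intervals of the AngII resident (404 to 451), Ear2 Tnip3 (377 to 434) and Arg1 Spp1 (423 to 478) classes overlapped, so these neighbours were not distinguished. T cell-like cells were at 26.7 CPM at steady state and 64.9 CPM on AngII, and at 15.6 CPM on AngII without such cells. After each cell was thinned to 1000 UMIs, a *Spi1* UMI was found in 30.2% of resident macrophage-like cells at steady state (21.6 to 39.9%, exact Clopper-Pearson, n = 106 cells) and in 36.7% on AngII (32.1 to 41.5%, n = 417), against 0 of 37 and 8.38% of 179 T cell-like cells, which stand for the background. The count of 0 among 37 allows a share of up to 8.11%. Before thinning, the shares were 86.9% and 50.8%, at median depths of 9264 and 1268 UMIs.

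*Cebpa* was low and even across macrophages. It stood at 133 CPM (112 to 156) in steady state and 128 CPM (115 to 141) in AngII resident macrophage-like cells, and at 122 to 140.3 CPM in both Ear2 Tnip3 classes. The Arg1 Spp1 class was at 138 CPM (124 to 154). Classical monocyte-like cells on AngII lay below the resident class, at 86.0 CPM (73.3 to 100.3), and neutrophil-like cells lower, at 47.9 CPM (35.9 to 62.7). T cell-like cells held 2 UMIs at steady state and 15 on AngII, or 5.94 and 11.1 CPM. The 12 classical monocyte-like cells of the steady state library were at 133 CPM (83.3 to 201), and the intervals of the macrophage classes of both libraries all overlapped.

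*Cebpb*, which drives inflammatory and emergency myeloid programmes, was higher in monocyte-like than in resident macrophage-like cells of both libraries. At steady state it reached 5287 CPM (4937 to 5656) in nonclassical and 4712 CPM (4387 to 5054) in classical monocyte-like cells, against 1196 CPM (1133 to 1262) in resident and 944 CPM (871 to 1023) in Ear2 Tnip3 macrophage-like cells. On AngII it was 3849 CPM (3734 to 3966) in neutrophil-like, 3011 CPM (2854 to 3173) in nonclassical and 2888 CPM (2812 to 2965) in classical monocyte-like cells, and the intervals of both monocyte classes overlapped. The Arg1 Spp1 class followed at 2008 CPM (1951 to 2066). Resident and other macrophage-like cells were next and not distinguished from each other, at 1269.8 CPM (1229 to 1311) and 1272 CPM (1189.9 to 1358). Type-1 conventional dendritic cell-like (cDC1-like) cells were lowest among myeloid classes of at least 20 cells, at 263 CPM (241 to 286), close to the 237 CPM (212 to 265) of T cell-like cells. Without cells that also passed the gate of another lineage, migratory dendritic cell-like cells were lower. They held 31.1 CPM (10.1 to 72.7, 21 cells), against 122 CPM (101 to 146, 125 cells) in cDC1-like cells. In thinned cells, 58.3% of resident macrophage-like, 69.3% of Arg1 Spp1 macrophage-like, 77.3% of classical monocyte-like and 85.9% of neutrophil-like cells on AngII held a *Cebpb* UMI, against 16.8% of T cell-like cells.

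*Maf* separated the resident macrophage-like cells from all other classes of both libraries. Its level was 1990.1 CPM (1909 to 2074) at steady state and 1175 CPM (1136 to 1214) on AngII. The class next in order was the Ear2 Tnip3 class at steady state, at 391 CPM (344 to 443), and the Arg1 Spp1 class on AngII, at 471 CPM (443 to 499). Classical monocyte-like cells held 109 CPM (64.4 to 172) and 207 CPM (187 to 228). Nonclassical monocyte-like cells held 243 CPM at steady state, where 1 cell carried 92.3% of the UMIs, and 293 CPM on AngII. A *Maf* UMI was found in 72.6% of thinned resident macrophage-like cells at steady state (63.1 to 80.9%) and in 64% on AngII (59.2 to 68.6%), against 8.11% and 11.7% of T cell-like cells, which can express the gene themselves. In single resident macrophage-like cells with at least 5000 UMIs, the median was 1937 CPM (middle 50% from 1258 to 2986, 93 cells) and 1159.9 CPM (661 to 1718, 152 cells), and 0 cells of either library lacked a *Maf* UMI. In the same depth range, 15 of 124 Arg1 Spp1 macrophage-like and 41 of 114 classical monocyte-like cells lacked one.

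*Zeb2* was at like levels across macrophages and monocytes. At steady state the resident, Ear2 Tnip3, classical and nonclassical classes stood at 906, 958, 991 and 824 CPM, with overlapping intervals. On AngII the resident class was highest, at 992 CPM (957 to 1029), and the Ear2 Tnip3, Arg1 Spp1, other macrophage-like and both monocyte-like classes lay between 753 and 799.8 CPM, again with overlapping intervals. Neutrophil-like cells were lower, at 559 CPM (516 to 605). Type-2 conventional dendritic cell-like (cDC2-like) cells held 415 CPM (383 to 449.8) on AngII and cDC1-like cells 133 CPM (118 to 150.2). The cDC1-like level was near that of T cell-like cells (113 CPM, 95.6 to 132). At steady state, all 24 *Zeb2* UMIs of the T cell-like class came from 1 cell.

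*Klf4* was highest in resident macrophage-like cells of both libraries, at 1712 CPM (1636 to 1789.9) and 557 CPM (531 to 585), and on AngII the interval overlapped with that of nonclassical monocyte-like cells (508 CPM, 445 to 577). At steady state the nonclassical class held 886 CPM (747 to 1045), and the classical class (574 CPM, 464 to 702) could not be told from the Ear2 Tnip3 class (538 CPM, 482 to 598). T cell-like cells held 26.7 and 46.4 CPM. Some B cell-like cells carried *Klf4* too. With at least 5000 UMIs, 26 of 42 at steady state and 29 of 45 on AngII lacked a *Klf4* UMI. Without cells that also passed the gate of another lineage, AngII B cell-like cells held 166 CPM of *Klf4* (79.8 to 306). *Klf2* was carried by lymphocytes at higher levels than *Klf4*. At steady state it was 1667 CPM (1473 to 1879) in nonclassical monocyte-like, 1371 CPM (1241 to 1511) in B cell-like, 1367 CPM (1299.8 to 1437) in resident macrophage-like and 1111 CPM (1001 to 1229.5) in T cell-like cells. On AngII, neutrophil-like (1042 CPM, 983 to 1104) and nonclassical monocyte-like cells (1128 CPM, 1033 to 1229) were highest with overlapping intervals, and the Arg1 Spp1 class was at 239 CPM (219 to 259).

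*Id3* and *Nr1h3* were rare transcripts. *Id3* gave 70 UMIs in the whole steady state library and 524 on AngII. Its highest levels were outside macrophages, at 84.4 CPM (54.6 to 125) in steady state B cell-like, 75.2 CPM (61.3 to 91.2) in AngII T cell-like, 67.4 CPM (49.5 to 89.6) in AngII B cell-like and 61.7 CPM (51.1 to 74.0) in AngII classical monocyte-like cells. These levels moved with cells of mixed lineage. Without them, the B cell-like class on AngII held 0 *Id3* UMIs in 51 cells, which allows up to 61.4 CPM. The AngII T cell-like class was then at 35.4 CPM (22.9 to 52.3), the classical monocyte-like class at 46.8 CPM (34.2 to 62.4) and the nonclassical class highest, at 87.6 CPM (51.0 to 140.2) in 20 cells. Resident macrophage-like cells held 5 UMIs at steady state and 34 on AngII, or 4.43 and 11.6 CPM. Of thinned AngII classical monocyte-like cells, 6.22% held an *Id3* UMI (3.44 to 10.2%, n = 225) and of resident macrophage-like cells 0.480% (0.0581 to 1.72%, n = 417). *Nr1h3* gave 15 and 317 UMIs. On AngII its order was led by nonclassical monocyte-like cells (45.6 CPM, 28.2 to 69.6) and the Arg1 Spp1 class (35.2 CPM, 28.0 to 43.6), whose intervals overlapped, migratory dendritic cell-like cells held 34.1 CPM (18.7 to 57.3), and resident macrophage-like cells 18.1 CPM (13.5 to 23.7). Without cells of mixed lineage the Arg1 Spp1 class was at 21.8 CPM (15.1 to 30.5). T cell-like cells on AngII held 1 UMI. Its thinned shares, at most 5.71% in any class, are near the level of 1 UMI and give no order.

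**Figure D1:**
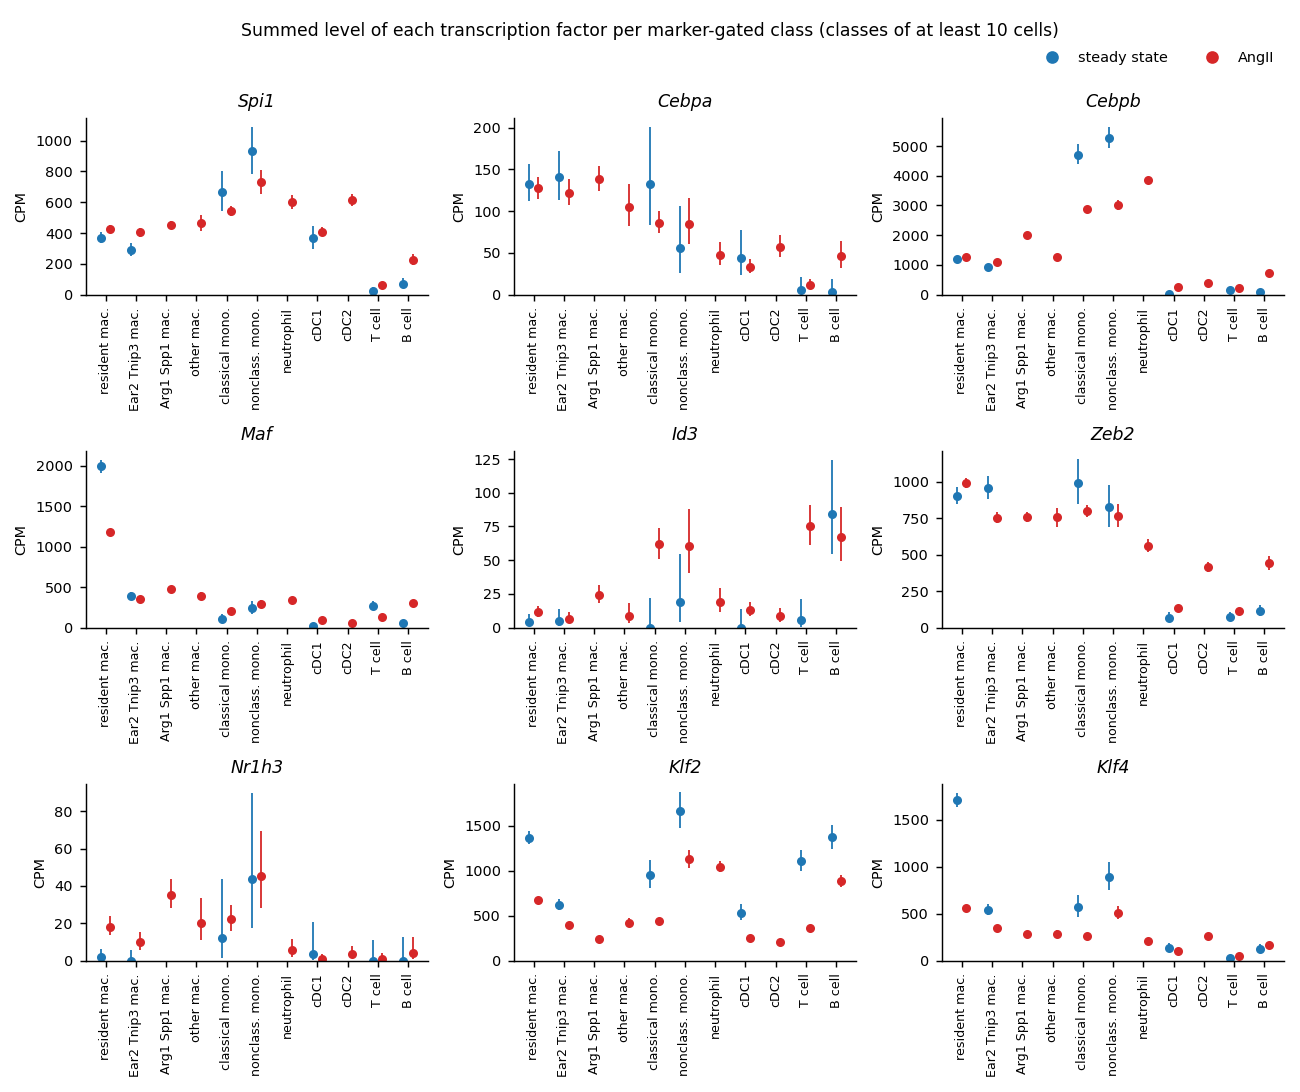
Summed level of each factor in CPM (vertical axis, linear, from 0) for each marker-gated class of at least 10 cells (horizontal axis), at steady state (blue) and on AngII (red), with 95% exact Poisson intervals. *Maf* and *Klf4* are highest in the resident class, *Cebpb* in monocyte-like and neutrophil-like cells, and *Zeb2* is spread over macrophage and monocyte classes.

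Several classes held cells that also passed the gate of another lineage, and the levels of several factors changed without them. On AngII such cells were 274 of 438 neutrophil-like, 132 of 183 B cell-like and 129 of 254 cDC1-like cells. At steady state they were 42 of 50 B cell-like cells. Any other lineage counted, so such a cell need not hold macrophage transcripts. The 10 pan-macrophage markers summed to 9061 CPM in AngII B cell-like cells and to 1401 CPM at steady state, while *Maf* was 298 and 54.0 CPM. Without the mixed cells, *Maf* was 51.6 CPM (30.6 to 81.5, 164 cells) in neutrophil-like cells in place of 346 CPM, and *Zeb2* 198 CPM (154 to 250.1) in place of 559 CPM. In cDC1-like cells without the mixed cells, *Maf* was 13.2 CPM, *Zeb2* 29.4 CPM and *Cebpb* 122 CPM, while *Spi1* stayed at 413 CPM, where it had been 408 CPM. *Cebpb* in neutrophil-like cells was higher without them, at 5542 CPM (5298 to 5794).

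The question behind the comparison of conditions was how inflammation alters adventitial macrophages. In resident macrophage-like cells, *Klf4* was 1712 CPM at steady state and 557 CPM on AngII, a ratio of 0.326 (0.305 to 0.348). *Klf2* was 1367 and 678 CPM, a ratio of 0.496 (0.464 to 0.530). *Maf* was 1990.1 and 1175 CPM, a ratio of 0.590 (0.559 to 0.623). The lineage factors and *Zeb2* lay closer to 1, with ratios of 1.16 (1.04 to 1.30) for *Spi1*, 0.96 (0.792 to 1.17) for *Cebpa*, 1.06 (0.997 to 1.13) for *Cebpb* and 1.10 (1.02 to 1.18) for *Zeb2*. The intervals of *Cebpa* and *Cebpb* held 1. *Id3* had a ratio of 2.62 (1.02 to 8.58) from 34 against 5 UMIs, and *Nr1h3* one of 10.2 (2.69 to 86.4) from 53 against 2. Without cells of mixed lineage the *Id3* ratio was 2.21 (0.736 to 8.95) from 19 against 4 UMIs, with an interval that held 1.

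Of the 7 factors with at least 100 UMIs over both libraries, 2 were lower by at least 2-fold, *Klf2* and *Klf4*, and 0 were higher, with *Klf2* at the edge of that fold. Of all 5503 genes with as many UMIs, 3.85% were lower and 5.07% higher, with a median log2 ratio of 0.04. With at least 20 UMIs, all 9 counted, and *Id3* and *Nr1h3* were the 2 higher, against 8.21% of all genes with as many UMIs higher and 7.46% lower. No replicate library was made of either condition, so these ratios have no check against the spread between animals.

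The depth, the markers of the class and the immediate-early genes also differed between the libraries in this class. In cells with at least 5000 UMIs the ratios were 0.332 for *Klf4*, 0.519 for *Klf2* and 0.602 for *Maf*. In cells thinned to 1000 UMIs they were 0.302, 0.456 and 0.614. Thinning leaves the expected CPM of each cell unchanged and only weighs cells equally, so it could not show an effect of depth. The 14 resident markers summed to 18135 CPM at steady state and 9648 CPM on AngII within the same class. *Fos*, *Jun*, *Egr1* and *Atf3*, which are induced by stimulation and by tissue dissociation and were added after their values had been seen, had ratios of 0.581, 0.317, 0.559 and 0.254. *Hspa1a*, a heat shock gene, had 0.419. Their part in the result was not tested.

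The lower *Klf2* was not restricted to macrophages. Its AngII to steady state ratio was 0.331 (0.289 to 0.380) in T cell-like, 0.645 (0.568 to 0.733) in B cell-like, 0.630 (0.558 to 0.713) in Ear2 Tnip3 macrophage-like, 0.457 in classical and 0.677 in nonclassical monocyte-like cells. *Jun* was lower in each of these 5 classes too, with ratios of 0.407 to 0.699, while *Egr1* had 1.79 in B cell-like cells and 5.09 in T cell-like cells. *Klf4* was 0.651 (0.571 to 0.743) in Ear2 Tnip3 macrophage-like, 0.450 in classical and 0.573 in nonclassical monocyte-like cells. *Maf* was 0.904 (0.781 to 1.05) in the Ear2 Tnip3 class, whose interval held 1 and did not meet that of the resident class, and 0.805 (0.690 to 0.940) in cells of that class with at least 5000 UMIs.

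**Figure D2:**
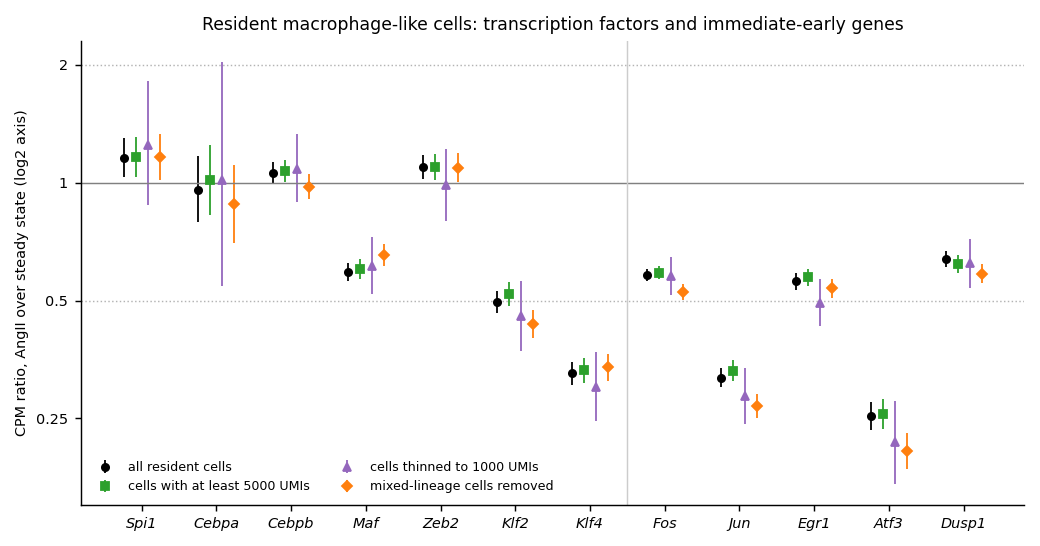
CPM ratio of AngII over steady state in resident macrophage-like cells (vertical axis, log2 scale) for 7 of the factors and 5 immediate-early genes, with 95% counting intervals, for all cells and for 3 other choices of cells. *Maf*, *Klf2* and *Klf4* lie below 1 under each choice, as do the immediate-early genes, and *Spi1*, *Cebpa*, *Cebpb* and *Zeb2* lie near 1.

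Resident macrophage-like cells were next set against classical monocyte-like cells within the AngII library. *Maf* was 1175 against 207 CPM, a ratio of 5.68 (5.11 to 6.32), and *Klf4* 557 against 259 CPM, a ratio of 2.16 (1.95 to 2.39). *Cebpb* was 1269.8 against 2888 CPM, a ratio of 0.440 (0.422 to 0.459), and *Id3* 11.6 against 61.7 CPM, a ratio of 0.188 (0.124 to 0.277). *Cebpa* (1.48), *Klf2* (1.56) and *Zeb2* (1.24) were higher and *Spi1* (0.788) lower by less than 2-fold, each with an interval without 1. *Nr1h3* had a ratio of 0.816 (0.534 to 1.25). Of the 8 factors with at least 100 UMIs, 2 were higher by 2-fold or more, against 7.65% of all genes, and 2 lower, against 3.47%. The 2 higher were *Maf* and *Klf4*, and the 2 lower *Cebpb* and *Id3*.

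At steady state only 12 classical monocyte-like cells were found, so both monocyte classes, 26 cells, were combined, a choice made after the data had been seen. *Maf* had a resident to monocyte ratio of 11.4 (8.74 to 15.1), which was 28.4 without the cell that carried most *Maf* UMIs on each side. *Klf4* was 2.35 (2.05 to 2.70), *Cebpb* 0.239 (0.223 to 0.258) and *Spi1* 0.464 (0.396 to 0.543). *Zeb2* (0.997, 0.875 to 1.14) and *Klf2* (1.05, 0.941 to 1.17) had intervals that held 1. Of 7 factors with at least 100 UMIs, 2 were higher, against 17.6% of all genes, and 2 lower, against 11.4%. These shares of all genes are larger than on AngII, so the counts stand nearer to the background.

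Arg1 Spp1 macrophage-like cells, named for arginase 1 and osteopontin, were set against resident macrophage-like cells on AngII. *Maf* was 471 against 1175 CPM, a ratio of 0.401 (0.374 to 0.429), *Klf2* 239 against 678 CPM, a ratio of 0.352 (0.320 to 0.387), and *Klf4* 280.4 against 557 CPM, a ratio of 0.503 (0.459 to 0.551). *Cebpb* was higher, 2008 against 1269.8 CPM, a ratio of 1.58 (1.51 to 1.65). *Spi1* (1.05, 0.970 to 1.14) and *Cebpa* (1.08, 0.930 to 1.26) had intervals that held 1, and *Zeb2* was 0.762 (0.718 to 0.809). *Id3* had a ratio of 2.08 (1.34 to 3.28) and *Nr1h3* 1.94 (1.36 to 2.80), and 45.6% of the *Id3* UMIs of the Arg1 Spp1 class came from 1 cell. Without the cell richest in *Id3* on each side, that ratio was 1.42, and without cells of mixed lineage the *Nr1h3* ratio was 1.04. Of 8 factors with at least 100 UMIs, 0 were higher by 2-fold, against 2.37% of all genes, and 2 were lower, *Maf* and *Klf2*, against 3.44%.

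In single cells of at least 5000 UMIs the classes overlapped widely. The middle 50% of Arg1 Spp1 macrophage-like cells held 141 to 792 CPM of *Maf* and 835 to 2518 CPM of *Cebpb*, and that of resident macrophage-like cells on AngII 661 to 1718 and 608 to 1762 CPM. No *Klf2* UMI was found in 60 of 124 Arg1 Spp1 macrophage-like cells, against 16 of 152 resident macrophage-like cells at this depth. Both a *Maf* and a *Cebpb* UMI were found in 37.9% of 417 thinned resident macrophage-like, 27.5% of 244 Arg1 Spp1 macrophage-like and 14.2% of 225 classical monocyte-like cells on AngII. *Cebpb* without *Maf* was found in 20.4%, 41.8% and 63.1% of these cells.

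**Figure D3:**
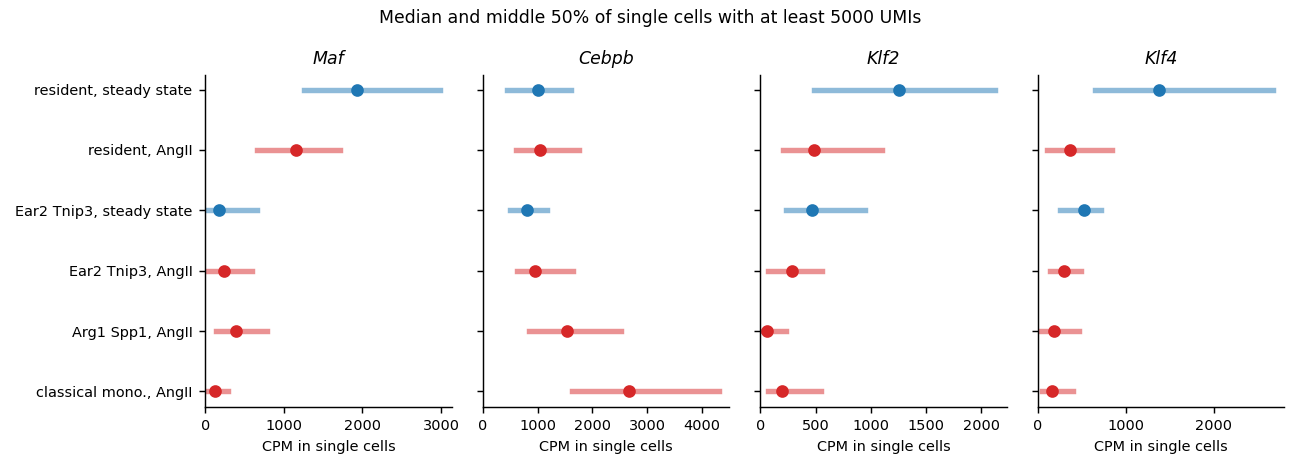
Level of *Maf*, *Cebpb*, *Klf2* and *Klf4* in single cells with at least 5000 UMIs (CPM, horizontal axis), as the median (point) and the middle 50% of cells (bar) per class, at steady state (blue) and on AngII (red). The resident class has the highest *Maf*, with medians of 1937 and 1159.9 CPM, and among the classes drawn the classical monocyte-like cells have the highest median of *Cebpb*, 2674 CPM.

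*Yfp*+ macrophages, which held at least 1 *Yfp* UMI, were compared with *Yfp*− macrophages to ask whether the factors follow the developmental origin. At steady state 98 of 138 macrophages were *Yfp*+, and on AngII 304 of 2103. The median depth was 11211.5 UMIs in *Yfp*+ and 7857.5 in *Yfp*− cells at steady state, and 5080.0 and 910.0 on AngII, and a *Yfp* UMI is less often seen in a shallow cell. At steady state *Klf4* was 1427 against 639 CPM, a ratio of 2.23 (1.97 to 2.54), *Maf* 1535 against 949.97 CPM, a ratio of 1.62 (1.45 to 1.80), and *Cebpb* 1136 against 934 CPM, a ratio of 1.22 (1.09 to 1.36). On AngII *Maf* had a ratio of 1.5 (1.42 to 1.58), *Klf4* 1.36 (1.27 to 1.46), *Klf2* 1.31 (1.23 to 1.40) and *Cebpb* 0.761 (0.731 to 0.792). *Spi1* stood at 1.03 (0.853 to 1.25) and 1.01 (0.941 to 1.08), and *Cebpa* at 0.809 (0.611 to 1.08) and 1.03 (0.908 to 1.18), with intervals that held 1.

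At steady state 1 of 7 factors with at least 100 UMIs was higher by 2-fold, *Klf4*, against 3.78% of all genes, and 0 were lower, against 1.57%. On AngII 0 of 9 were higher, against 0.657%, and 0 lower, against 1.15%. In cells with at least 5000 UMIs the *Maf* ratios were 1.68 and 1.64 and the *Klf4* ratios 2.34 and 1.44. The steady state *Klf4* ratio was under 2-fold with all deposited barcodes (1.92), in cells thinned to 1000 UMIs (1.79), without cells of mixed lineage (1.93) and in the resident class alone (1.70).

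The *Yfp*+ share differed between the macrophage classes, and its part in the *Maf* ratio over all macrophages was not tested. Of resident macrophage-like cells, 75.7% were *Yfp*+ at steady state and 25.4% on AngII, against 54.8% and 8.95% of the other macrophages. These shares depend on depth, which was lower on AngII. In cells with at least 5000 UMIs they were 82.8% and 64.5% in the resident class, and 60.7% and 24.4% in the other macrophages. Within the resident class, *Maf* was 1904 CPM in *Yfp*+ and 2517 CPM in *Yfp*− cells at steady state, a ratio of 0.756 (0.679 to 0.845), and 1168 and 1183 CPM on AngII, a ratio of 0.987 (0.922 to 1.06). In the other macrophages *Maf* was 753 against 33.1 CPM at steady state, a ratio of 22.7 (11.8 to 50.1) over 17 and 14 cells, and the AngII ratio was 1.23 (1.11 to 1.35) over 125 and 1272 cells. *Cebpb* was 0.921 (0.793 to 1.07) and 0.900 (0.844 to 0.961) within the resident class. *Klf4* kept its direction there, at 1.70 (1.45 to 2.0) and 1.18 (1.07 to 1.30). In the other macrophages *Klf4* was 1.55 (1.23 to 1.96) at steady state and 1.05 (0.931 to 1.18) on AngII, where the interval held 1. The AngII ratio of *Klf2* was 1.01 (0.926 to 1.11) within the resident class and 1.03 (0.918 to 1.16) in the other macrophages. Both of these *Klf2* intervals held 1, unlike that over all macrophages. Over all steady state macrophages without cells that also passed the gate of another lineage, *Maf* was 0.730 and *Cebpb* 0.821, so both turned in direction. Within the steady state Ear2 Tnip3 class, *Maf* was 650.4 CPM in 13 *Yfp*+ cells and 33.4 CPM in 12 *Yfp*− cells, a ratio of 19.5 (10.1 to 43.1), with 21.1% of the UMIs of the class in 1 cell. Of these 25 cells, 16 also passed the gate of another lineage, and the rest were too few for a ratio. On AngII the same ratio was 1.87 (1.61 to 2.18) over 53 and 310 cells. In the Arg1 Spp1 class it was 0.952 (0.820 to 1.10), while *Cebpb* there was 0.620 (0.572 to 0.672).

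**Figure D4:**
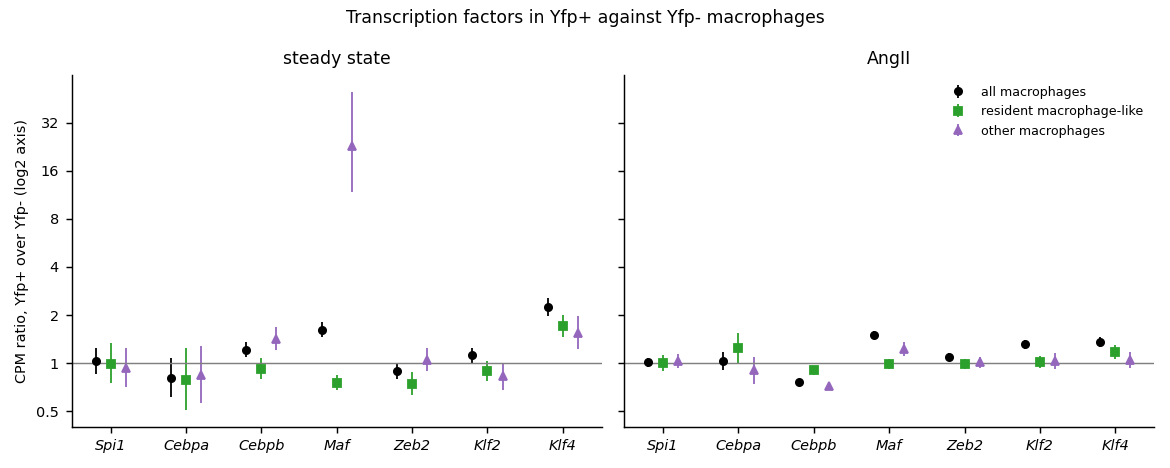
CPM ratio of *Yfp*+ over *Yfp*− cells (vertical axis, log2 scale) at steady state (left) and on AngII (right) for all macrophages, the resident class and the other macrophages, with 95% counting intervals. *Maf* lies above 1 over all macrophages in both libraries, and within the resident class at 0.756 and 0.987.

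Genes related to the factors were read from 3 lists, 20 relatives of the same families, 20 other regulators of macrophages and monocytes and 9 targets of liver X receptors. In resident macrophage-like cells, AngII against steady state, 43 of 49 had at least 20 UMIs, of which 6 were higher by 2-fold, against 8.21% of all genes with as many UMIs, and 3 lower, against 7.46%, with a median log2 ratio of -0.07. The targets held 3 of the higher ones. *Abcg1*, a cholesterol exporter, was 83.2 against 2.66 CPM from 244 and 3 UMIs, a ratio of 31.3 (10.6 to 153). *Scd2*, a fatty acid desaturase, had 37 UMIs against 1, a ratio of 14.3 (2.40 to 578). From the list of other regulators, the helix-loop-helix factor *Bhlhe40* had 74 UMIs against 2, a ratio of 14.3 (3.81 to 119.8). The exporter *Abca1* was 1.28 (1.12 to 1.45) and *Pltp*, which transfers phospholipids, 0.851 (0.801 to 0.904). The 3 lower genes were *Atf3* (0.254, 0.234 to 0.275), *Egr2* (0.311, 0.271 to 0.356) and *Mef2c* (0.418, 0.376 to 0.464).

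Against classical monocyte-like cells on AngII, 8 of 45 genes with at least 20 UMIs were higher in resident macrophage-like cells, against 12.4% of all genes, and 4 lower, against 4.41%. *Pltp* was 1161 against 180.4 CPM, a ratio of 6.44 (5.76 to 7.21), *Abca1* 4.06 (3.44 to 4.80), and *Bhlhe41*, with 25 UMIs against 0, at least 5.39-fold higher. The lowest were *Id1* (0.0986, 0.043 to 0.2), *Runx2* (0.180, 0.0795 to 0.369) and *Smpdl3a* (0.378, 0.326 to 0.437). Against monocyte-like cells at steady state, 9 of 38 were higher, against 21.3%, and 12 lower, against 11.6%. *Mitf*, with 73 UMIs against 0, was at least 7.02-fold higher, *Pltp* 17.1-fold (11.6 to 26.3) and *Egr2* 9.37-fold (5.63 to 16.9). *Bhlhe40* (0.0175), *Abcg1* (0.0509) and *Pparg* (0.0679) were lowest, from 2, 3 and 4 UMIs in the resident class.

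Between Arg1 Spp1 and resident macrophage-like cells on AngII, 5 of 45 genes were higher, against 3.7% of all genes, and 3 lower, against 5.87%. *Runx2*, a factor of bone-forming cells, had a ratio of 6.95 (3.52 to 15.3), *Bhlhe40* 4.23 (3.25 to 5.56) and *Id1* 2.90 (1.27 to 7.19), and *Pltp* (0.261, 0.241 to 0.283), *Irf4* (0.310, 0.16 to 0.565) and *Mef2c* (0.463, 0.402 to 0.533) were lowest. In *Yfp*+ against *Yfp*− macrophages at steady state, 5 of 39 were higher, against 8.33%, and 2 lower, against 3.82%, led by *Bhlhe41* (6.34, 1.02 to 262), *Ets2* (2.81, 1.75 to 4.78) and *Tfec* (2.72, 0.836 to 14), with *Bhlhe40* (0.345), *Irf4* (0.480) and *Id2* (0.536) lowest. On AngII 0 of 46 were higher, against 2.27%, and 5 lower, against 2.96%, with *Cebpe* (0.180), *Id1* (0.413) and *Id2* (0.456) lowest and *Spic* (1.42), *Mef2c* (1.36) and *Pltp* (1.31) highest.

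The genes whose level followed each factor most closely over the classes were found by Pearson's r of log2(CPM + 10) over 18 classes of at least 20 cells, pooled from both libraries, among 10121 genes. The points share libraries and differ in depth, so r is a description. The 3 closest to *Maf* were *Dusp7* (0.92), *Selenop* (0.92), which encodes the selenium carrier of plasma, and the gate marker *Pf4* (0.91). *Cebpa* was closest to *B4galt6*, *Cyfip1* and *Pid1* (0.97, 0.97 and 0.96), *Cebpb* to *Igsf6*, *Atp6v1e1* and *Rbms1* (0.94, 0.92 and 0.92), and *Spi1* to *Brk1*, *Il13ra1* and *Gpx1* (0.98, 0.95 and 0.95). *Zeb2* was closest to *Itgam*, the integrin chain CD11b, *Arl8a* and *Adam9* (0.95, 0.94 and 0.93). *Klf2* was closest to *Tsc22d3*, a glucocorticoid-induced gene, *Prxl2c* and *Acbd5* (0.92, 0.87 and 0.85), and *Klf4* to *Ppp1r12c*, *Clmp* and *Qk* (0.91, 0.91 and 0.90). For the rare *Nr1h3* they were *Dram1*, *Rai14* and *C3* (0.89, 0.88 and 0.87), and for *Id3* *Gm43011*, *Sf1* and *Gm42515* (0.89, 0.85 and 0.85). Among the factors themselves, *Cebpa* and *Zeb2* had the highest r (0.88) and *Nr1h3* and *Klf2* the lowest (-0.28).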

How the data were processed

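CD45-positive cells were captured with 10x Chromium 3′ v3.1 chemistry. The submitters' processing notes name bcl2fastq, Cell Ranger 3.1.0 and GRCm38.p6, the study's methods add the eYFP sequence to the reference, and whether counting used strand is not given in the sources used here. The deposited values are raw UMI counts in a gene by droplet matrix, which the authors limited to droplets called as cells. The 9 factors and all lists were chosen with earlier results of these data known, and the scoring of the gate was settled after the data were seen. No p-value was computed, since each condition is 1 library of pooled animals.

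The cells used had 300 to 6500 genes and no more than 5% of UMIs from mitochondrial genes. For each of 21 marker lists, the mean z-score of log-normalized markers (limited at 5) was taken per cell, and the highest list with at least 2 markers and 3 UMIs gave the class. Macrophages were then split by their subset lists. Doublets were left in. A cell is said to pass the gate of another lineage, or to be of mixed lineage, under 2 conditions. A list of another lineage met the same minima, and its mean z-score was above 0. In 1 alternative such cells are removed. UMIs were summed per class. CPM carry exact Poisson, shares Clopper-Pearson and ratios exact conditional binomial intervals (95%), and a count of 0 is read as 3 UMIs. For shares, cells were thinned without replacement to 1000 UMIs, and shallower cells were left out, which kept 106 of 107 resident macrophage-like cells at steady state and 417 of 706 on AngII.

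Genes named are the 9 factors, from the 3 lists the 3 highest and 3 lowest ratios per comparison among genes with at least 20 UMIs, and the 3 closest genes per factor. *Scd2*, *Abca1* and *Pltp* in the comparison of conditions and the immediate-early genes were named, where the rule did not give them, after their values were seen. The background of each count is all genes with at least 100 UMIs, or 20 for counts at that minimum and for the lists, *Yfp* left out. Alternatives changed the filter, depth, gate, clusters (2000 genes, 20 components, 15 neighbours, resolution 1), mixed cells, single cells, *Yfp* call and CPM total. Python 3.11.15, NumPy 2.4.6, SciPy 1.17.1, igraph 0.11.9, leidenalg 0.10.2 and Matplotlib 3.10.9 were used. The ratio and its interval were tested on simulated counts, and thinning was checked on steady state cells for the depth it reached. The other steps were not tested on simulated data. Promoters are from RefSeq and coordinates are 1-based.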

Additional observations from a re-analysis of the deposited data

Results flagged for a closer look

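The AngII to steady state ratio of *Maf* pointed in different directions between classes. It was 5.52 in B cell-like cells, against 0.590 in resident macrophage-like and 0.502 in T cell-like cells. *Zeb2* was 3.96 in B cell-like, 1.10 in resident macrophage-like and 1.58 in T cell-like cells, and 0.786 in Ear2 Tnip3 macrophage-like cells. The *Yfp*+ to *Yfp*− ratio of *Cebpb* over all macrophages was 1.22 at steady state and 0.761 on AngII, and 0.821 at steady state without cells of mixed lineage. In each case the counting intervals lay on opposite sides of 1, and with 1 library per condition the difference was not tested against the spread between animals. In B cell-like cells, 132 of 183 on AngII and 42 of 50 at steady state also passed the gate of another lineage, and in the 51 AngII cells without such a call *Maf* was 166 CPM (79.8 to 306) and *Zeb2* 283 CPM (165 to 453). The steady state class then kept too few cells for a ratio. In B cell-like cells with at least 5000 UMIs, the ratios were 4.66 (2.76 to 8.39) for *Maf* and 4.74 (3.15 to 7.42) for *Zeb2*. In T cell-like cells, 1 cell held 51.1% of the *Maf* UMIs at steady state. Without cells of mixed lineage, the T cell-like *Maf* ratio was 0.746 (0.516 to 1.10), and in cells thinned to 1000 UMIs it turned in direction, at 1.28 (0.494 to 4.22), with intervals that held 1. With at least 5000 UMIs it was 0.4 (0.301 to 0.533). T cell-like *Zeb2* had 43 UMIs against 0 without cells of mixed lineage, and ratios of 1.65 (0.586 to 6.44) in thinned cells and 1.15 (0.727 to 1.89) with at least 5000 UMIs, whose intervals held 1. In the Ear2 Tnip3 class, *Zeb2* was 0.658 (0.440 to 1.02) in thinned cells and 0.774 (0.701 to 0.855) with at least 5000 UMIs.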

How the results depend on the processing

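The ratios of single factors stayed within their counting interval in 71 of 78 alternatives for the comparison of conditions. For resident against classical monocyte-like cells on AngII they did so in 65 of 81. For resident against classical and nonclassical monocyte-like cells together at steady state it was 56 of 63. The Arg1 Spp1 class had 62 of 78, and *Yfp* 56 of 77 at steady state and 75 of 107 on AngII. With cells thinned to 1000 UMIs, the number of factors past 2-fold fell to 2 in the comparison of conditions, 2 for resident against classical monocyte-like cells on AngII, 1 for Arg1 Spp1 against resident macrophage-like cells and 0 for *Yfp*+ against *Yfp*− macrophages at steady state, with fewer factors at 20 UMIs in each. With classes from clusters, these numbers were 4, 2, 5 and 2, and *Klf2* in the Arg1 Spp1 class was reversed, at 1.31 times the resident level. That cluster held 25 cells, and the cause was not tested. With all deposited barcodes or without mixed-lineage cells, *Yfp*+ against *Yfp*− gave 0 at steady state and 1 on AngII, and in resident macrophage-like cells alone 0 at steady state. A *Yfp* call after thinning could not be made for steady state, with too few cells, and was not run. Of the shares of cells, 5 of 36 stayed and 31 moved when cells were thinned to 500 or 2000 UMIs, so a share holds for its depth.

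At steady state, 12 classical monocyte-like cells limit all monocyte values, and 44.6% of AngII barcodes held under 1000 UMIs. No paired analysis was possible because each condition is 1 library.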
